A study of Homo sapiens with 5 samples.

Results

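The NF-kB genes described here are the 5 genes that encode the NF-kB subunits (NFKB1, NFKB2, REL, RELA and RELB) and 5 genes that encode inhibitors or feedback proteins of the pathway (NFKBIA, NFKBIE, TNFAIP3, BIRC3 and BCL3). They were chosen by gene symbol from a count table of 26485 genes, and all 10 were found in it. The samples were 5 RNA-seq libraries of RPE1, a human cell line from retinal pigment epithelium, of wild-type genotype. Cells were incubated for 18 h with the solvent DMSO (2 libraries), with 0.2 μM doxorubicin (2 libraries) or with 0.34 μM doxorubicin (1 library). Doxorubicin is an anthracycline that intercalates into DNA, inhibits topoisomerase II and causes double-strand breaks. The concentrations are those of the sample labels, whereas the treatment protocol in the labels gives much higher values under the same unit. The study's methods describe the libraries as biological replicates of 1 cell line, so p-values measure the spread between these libraries.

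NF-kB is a family of transcription factors that act as dimers. In resting cells the dimers are held in the cytoplasm by IkB proteins. The IKK kinase complex marks the IkB proteins for degradation, and the released dimers enter the nucleus and bind kB sites. Many genes of the pathway are themselves activated by NF-kB, which gives negative feedback through new IkB and A20 protein. DNA double-strand breaks can reach IKK from the nucleus through the kinase ATM and the scaffold NEMO.

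As several of the 10 genes are known targets of the factors they encode or restrain, their promoters were searched for the kB consensus, a motif of 10 bases, on both strands of the 250 bases before each annotated start (RefSeq sequences, GRCh38.p14). The table held 12 promoter windows for 8 of the genes and none for RELB and NFKBIE. A match was present in 7 of the 12 windows (58.3%), against 5.21% of all 35116 promoter windows and 42.2% of 45 windows of a list of known NF-kB target genes. A shorter form of 9 bases, GGGANTTCC, was present in 3 of the 12 windows (25%) and in 1.59% of all windows. It differs in length from the consensus and was counted separately. Of the genes, 6 of 8 had a match, and RELA and BCL3 had none. The sites below are shown because they lie in the promoters of the genes whose mRNA levels are compared. Each is printed along the strand of the gene, the capitals mark the match, and matches on the opposite strand appear as their complement.
NFKB1 (chr4:102501300-102501329, plus strand): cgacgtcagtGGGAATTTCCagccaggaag
NFKB2 (chr10:102394461-102394490, plus strand): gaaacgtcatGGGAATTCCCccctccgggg
REL (chr2:60881517-60881546, plus strand): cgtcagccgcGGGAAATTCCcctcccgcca
NFKBIA (chr14:35404811-35404840, minus strand): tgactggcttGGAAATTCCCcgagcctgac
TNFAIP3 (chr6:137867182-137867211, plus strand): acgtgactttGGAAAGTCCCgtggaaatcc
TNFAIP3 (chr6:137867194-137867223, plus strand): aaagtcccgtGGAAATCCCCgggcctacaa
BIRC3 (chr11:102317275-102317304, plus strand): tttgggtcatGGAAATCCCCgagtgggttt
BIRC3 (chr11:102317339-102317368, plus strand): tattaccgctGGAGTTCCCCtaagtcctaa
The sites began 49 bases before the start in NFKB1, 107 in NFKB2, 47 in REL, 81 in NFKBIA, 67 and 55 in TNFAIP3, and 199 and 135 in BIRC3. In NFKB2 and REL an overlapping match lay 1 base further on the opposite strand. The NFKB2 site shown is a palindrome, and 2 windows of this gene held further matches. A match is a description of the letters and does not show binding.

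The libraries held between 23773061 and 36725345 counts on genes, and the 10 genes together took between 5051 and 9547 of these. Values per library are given as CPM, counts scaled to library size after TMM normalization, and 14187 genes, including all 10, passed the filter on low counts. The p53 target CDKN1A, which encodes the cell cycle inhibitor p21, had 276 ± 26.1 CPM (SD, n = 2) in DMSO and rose to 2900 ± 500.4 (SD, n = 3). Of a list of 10 retinal pigment epithelial markers, 5 passed the filter. Among these the transcription factors MITF and OTX2 had at least 601 counts in each library, while RPE65, RLBP1, TYR, TYRP1 and TTR did not pass. The others that passed had few counts. BEST1 had 26 and 14 in DMSO against 86, 30 and 142 in doxorubicin, and PMEL had 7 and 5 against 22, 32 and 46. SERPINF1 had 11 and 29 in DMSO against 4, 15 and 13 in doxorubicin. Of 8 immune markers, CD3E and MS4A1 had 0 counts in each library and 2 passed the filter. The 8 summed to between 91.3 and 100.7 CPM in DMSO and between 79.0 and 110.7 in doxorubicin, mostly from CD68. PTPRC (CD45) had 5 and 7 counts in DMSO against 25, 53 and 72 in doxorubicin, and the part of such cells in the results below was not tested. Of 5 endothelial markers 4 passed the filter, and the list summed to between 2.48 and 7.29 CPM in DMSO and between 2.63 and 8.52 in doxorubicin.

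To test how doxorubicin changed the NF-kB genes, the 3 doxorubicin libraries were compared with the 2 DMSO libraries. The mRNA levels of the main subunits and of IkBα were close to those in DMSO, while REL was at 0.498 times and RELB, NFKBIE and TNFAIP3 were at 2.44, 2.35 and 1.95 times the DMSO level. At the study's threshold, an adjusted p of 0.01, edgeR's quasi-likelihood test called 0 of the 10 genes, against 4.02% of all genes tested. At an unadjusted p of 0.05, 3 genes were higher (RELB, NFKBIE and TNFAIP3), against 15.2% of all genes, and 1 was lower (REL), against 15.6%. At an adjusted p of 0.05 only NFKBIE was called, against 13.6% of all genes. DESeq2 on the same groups called NFKBIE at 0.01, against 14.1% of all genes, and limma voom called none of the 10. In 3 of the 10 genes every doxorubicin library lay above both DMSO libraries, as in 24.3% of all genes, and in 1 every doxorubicin library lay below, as in 23.4% of all genes. The shares of the 10 genes that were called or did not overlap were thus near those of all genes. The median log2 fold change of the 10 genes was 0.04 and that of all genes tested 0.01. The former depended on the DMSO libraries, with 0.42 when DMSO replicate 1 was left out and -0.11 when replicate 2 was. In bulk RNA, less mRNA per cell and fewer cells with the mRNA cannot be told apart.

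**Figure D1:**
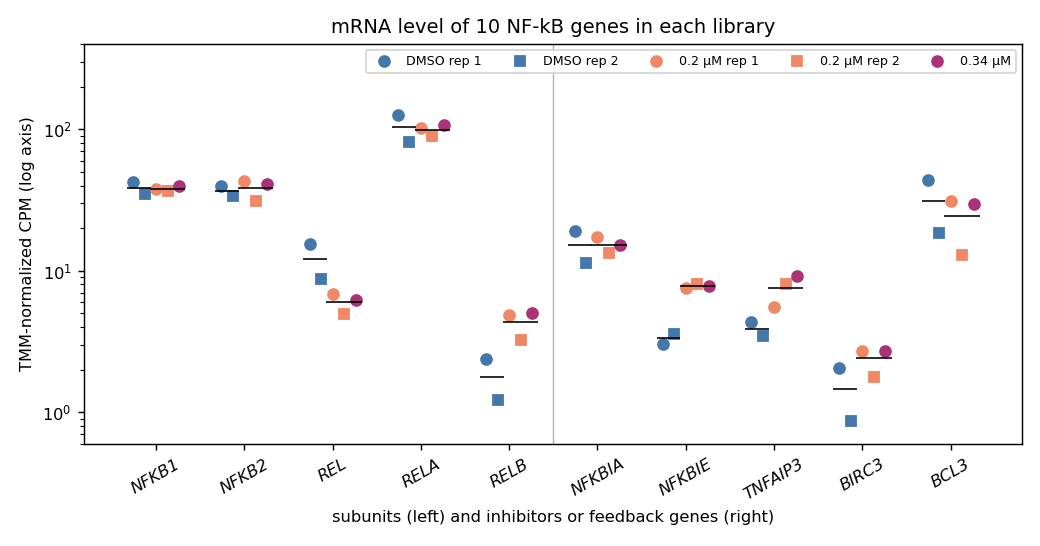
TMM-normalized CPM (log axis) of each of the 10 genes in each of the 5 libraries, with circles for replicate 1 (and the lone 0.34 μM library), squares for replicate 2 and horizontal lines for the means of the DMSO and of the doxorubicin libraries. The groups do not overlap for REL, RELB, NFKBIE and TNFAIP3, and for BCL3 both squares lie below all circles.

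Among the subunits, RELA encodes p65, the transactivating subunit of the most common dimer. Its level was 125.0 and 81.7 CPM in the DMSO libraries, 101 and 89.7 at 0.2 μM and 106 at 0.34 μM doxorubicin. All doxorubicin libraries thus lay between the DMSO libraries. The log2 fold change was -0.06 (standard error, SE, 0.21; edgeR adjusted p = 0.873), with a 95% interval from -0.55 to 0.43. NFKB1 encodes p105, the precursor of the DNA-binding subunit p50. It was at 42.1 and 34.7 CPM in DMSO, 37.8 and 36.6 at 0.2 μM and 39.7 at 0.34 μM. Again the doxorubicin libraries lay within the range of DMSO, and the 95% interval of the log2 fold change of -0.01 was -0.39 to 0.37. NFKB2 encodes p100, the precursor of p52, which acts in the non-canonical pathway. It was at 39.9 and 33.9 CPM in DMSO, 43.4 and 31.3 at 0.2 μM and 41.3 at 0.34 μM, so that the groups overlapped (log2 fold change 0.07, 95% interval -0.40 to 0.53). The intervals of these 3 genes thus exclude a change of 1 on the log2 scale in either direction, but not a smaller one.

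REL and RELB, the less abundant subunits, lay on opposite sides of their DMSO levels. REL encodes c-Rel, a transactivating subunit best known from lymphoid cells (chromosome 2 of GRCh38, 60881574 to 60931612). It was at 15.3 and 8.74 CPM in DMSO, at 6.84 and 4.95 with 0.2 μM and at 6.17 with 0.34 μM doxorubicin. All doxorubicin libraries lay below both DMSO libraries, although the DMSO libraries themselves differed. The log2 fold change was -1.01 (SE 0.30, 95% interval -1.72 to -0.29). It did not pass the threshold (edgeR adjusted p = 0.0707, 0.0162 from DESeq2), and without DMSO replicate 1 it was -0.55. RELB encodes the partner of p52 in the non-canonical pathway (chromosome 19, 45001464 to 45038192). Its counts were low, 62 and 31 in DMSO, 126 and 78 at 0.2 μM and 182 at 0.34 μM. In CPM these were 2.37 and 1.21, 4.87 and 3.24, and 5.02, so that all doxorubicin libraries were higher. The log2 fold change was 1.29 (SE 0.40, 95% interval 0.34 to 2.24) and did not pass the threshold either (edgeR adjusted p = 0.0787, 0.0191 from DESeq2). It was between 0.87, without DMSO replicate 2, and 1.84, without DMSO replicate 1, with each library left out in turn.

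As both REL and RELB were higher in replicate 1 than in replicate 2 of DMSO, their counts were also divided within each library, a measure that needs no normalization. This ratio was chosen after the values were seen and is given without a test. RELB counts per REL count were 0.154 and 0.139 in DMSO, 0.712 and 0.655 at 0.2 μM and 0.812 at 0.34 μM. The mean was 0.147 ± 0.0108 (SD, n = 2) in DMSO and 0.727 ± 0.0796 (SD, n = 3) in doxorubicin, which is 4.96 times as high. Since RELB lay above DMSO and REL below it in each doxorubicin library, the ratio had to differ between the groups. The size of the shift largely follows from the fold changes of the 2 genes given above. The ratio of NFKB2 to NFKB1, the precursor genes, was 0.948 and 0.977 in DMSO and 1.15, 0.855 and 1.04 in doxorubicin, with overlap. The ratio of RELB to RELA was 0.0169 ± 0.00288 (SD, n = 2) in DMSO and 0.0438 ± 0.00665 (SD, n = 3) in doxorubicin.

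**Figure D2:**
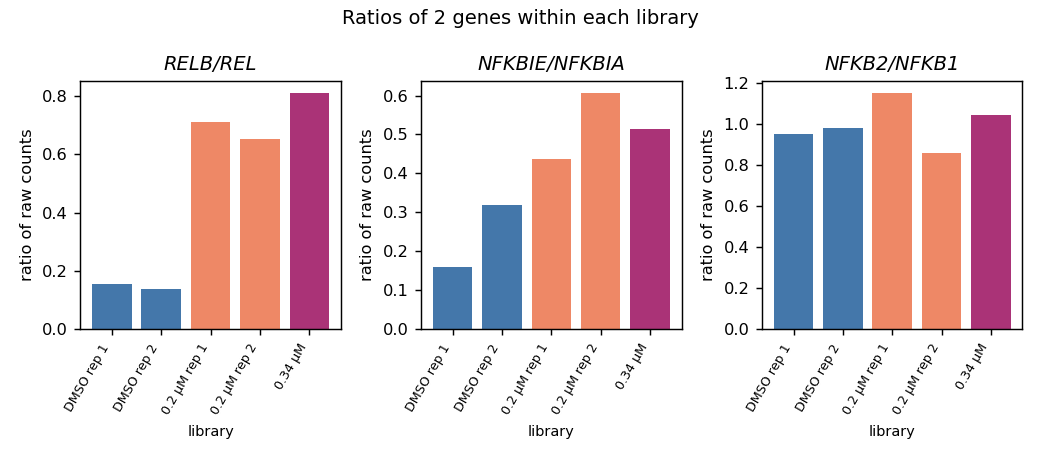
Ratios of raw counts of 2 genes within each of the 5 libraries (bars, axes from 0) for RELB to REL, NFKBIE to NFKBIA and NFKB2 to NFKB1. RELB to REL was at most 0.154 in DMSO and at least 0.655 in doxorubicin, whereas the ratio of the precursor genes NFKB2 and NFKB1 stayed between 0.855 and 1.15.

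Among the inhibitors, the genes for the IkB proteins differed from each other. NFKBIA encodes IkBα, the inhibitor that is degraded and made anew in the classical feedback loop. It was at 19.2 and 11.3 CPM in DMSO, 17.4 and 13.3 at 0.2 μM and 15.3 at 0.34 μM, and the doxorubicin libraries lay between the DMSO libraries. Its log2 fold change was 0.01 (SE 0.27, 95% interval -0.63 to 0.64, edgeR adjusted p = 0.987). NFKBIE encodes IkBε, a slower inhibitor of the same family (chromosome 6, 44258166 to 44265551). It was at 3.05 and 3.60 CPM in DMSO, 7.58 and 8.11 at 0.2 μM and 7.83 at 0.34 μM, and the counts behind these were 80 and 92, 196 and 195, and 284. The doxorubicin libraries were all more than 2 times as high as either DMSO library, and libraries of 1 group were close to each other. The log2 fold change was 1.23 (SE 0.23, 95% interval 0.68 to 1.79, edgeR adjusted p = 0.0186), and NFKBIE had the smallest standard error among the 4 genes without overlap. The call at 0.05 was lost without DMSO replicate 1 (edgeR adjusted p = 0.0506), without 0.2 μM replicate 1 (0.0777) and without the 0.34 μM library (0.115), while the log2 fold change stayed between 1.11 and 1.34. The ratio of NFKBIE to NFKBIA was 0.159 and 0.319 in DMSO and 0.437, 0.607 and 0.513 in doxorubicin.

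TNFAIP3 encodes A20, an enzyme that edits ubiquitin chains and shuts off signals to IKK (chromosome 6, 137866349 to 137883312). Its counts were 114 and 88 in DMSO, 144 and 193 at 0.2 μM and 332 at 0.34 μM. This is 4.35 and 3.45 CPM, 5.57 and 8.02 CPM, and 9.15 CPM, with the doxorubicin libraries above DMSO but apart from each other. The log2 fold change was 0.96 (SE 0.30, 95% interval 0.24 to 1.68) and did not pass the threshold (edgeR adjusted p = 0.0809, 0.0256 from DESeq2). TNFAIP3 overlaps the noncoding gene WAKMAR2, and no source used here says whether the counting used strand. The same limit applies to NFKB1, which overlaps 3 genes including NFKB1-AS1, and to REL (RNU4-51P), RELA (RELA-DT) and BCL3 (MIR8085). BIRC3 encodes cIAP2, a ubiquitin ligase in the TNF receptor complex. It had only 54 and 22 counts in DMSO, 70 and 43 at 0.2 μM and 99 at 0.34 μM. In CPM its groups overlapped, since DMSO replicate 1 (2.06) lay above 0.2 μM replicate 2 (1.79), and the 95% interval of the log2 fold change of 0.72 was -0.38 to 1.82. Leaving out DMSO replicate 1 gave 1.48, and leaving out replicate 2 gave 0.21. BCL3 encodes an atypical IkB protein of the nucleus that binds p50 and p52 dimers. It was at 43.6 and 18.6 CPM in DMSO, 31.2 and 13.0 at 0.2 μM and 29.5 at 0.34 μM. Replicate 2 was the lower in both conditions, by more than the difference between conditions, and the log2 fold change of -0.34 (SE 0.47) turned to 0.40 without DMSO replicate 1.

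The spread within a condition was shared by most of the 10 genes. In DMSO, replicate 1 was higher than replicate 2 for 9 of the 10 genes (the exception was NFKBIE), as for 49.5% of all genes tested. At 0.2 μM it was higher for 8 of the 10 (the exceptions were NFKBIE and TNFAIP3), as for 47.8% of all genes. For 8 of the 10 it was higher in both conditions, as for 27.9% of all genes. The 10 genes summed to 297 and 198 CPM in DMSO, to 258 and 210 at 0.2 μM and to 263 at 0.34 μM, so that all doxorubicin libraries lay between the DMSO libraries. For REL and RELB, the DMSO libraries differed by 0.81 and 0.92 on the log2 CPM scale.

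**Figure D3:**
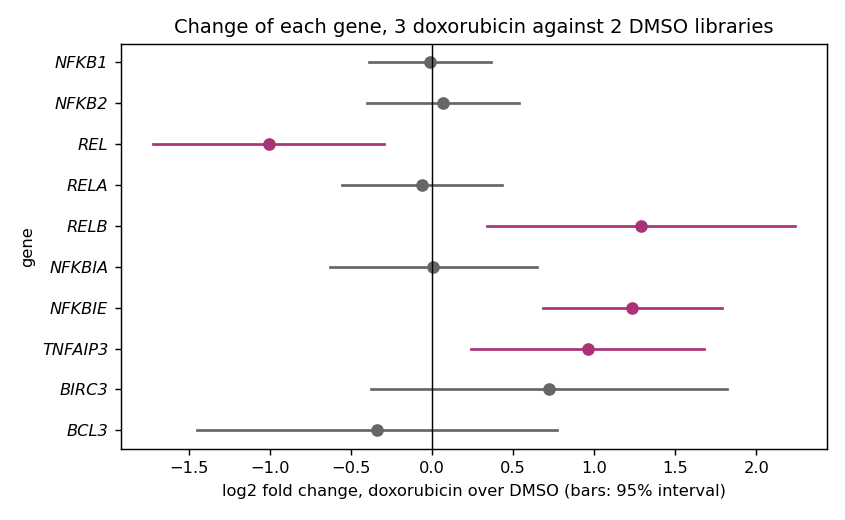
Log2 fold change of each gene in 3 doxorubicin against 2 DMSO libraries from edgeR (points) with its 95% interval (bars); magenta marks genes whose groups do not overlap. The intervals of REL (-1.72 to -0.29), RELB (0.34 to 2.24), NFKBIE (0.68 to 1.79) and TNFAIP3 (0.24 to 1.68) lie on 1 side of 0, before adjustment for the number of genes tested.

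To compare levels between genes, CPM was divided by the length in kb of the canonical transcript in GENCODE. In DMSO the order was RELA (41.1 ± 12.2 CPM per kb, SD, n = 2), BCL3 (16.6 ± 9.40), NFKB2 (12.2 ± 1.41), NFKBIA (9.77 ± 3.59), NFKB1 (9.46 ± 1.29), NFKBIE (1.42 ± 0.166), REL (1.08 ± 0.421), TNFAIP3 (0.836 ± 0.137), RELB (0.793 ± 0.360) and BIRC3 (0.212 ± 0.123). The genes fell into a group of RELA, BCL3, NFKB2, NFKBIA and NFKB1 and a group of the other 5, and each library of the first group was above each of the second. From BCL3 to NFKB1, and from NFKBIE to RELB, neighbours did not differ beyond their spread, while RELA lay above BCL3 and BIRC3 below RELB in both libraries. In doxorubicin, RELA remained first with 39.4 ± 3.40 CPM per kb (SD, n = 3). REL was in the 9th place, against the 7th in DMSO, with 0.539 ± 0.0865, and RELB in the 7th, against the 9th, with 1.94 ± 0.436. In DMSO, REL was above RELB in both libraries on this scale, and in doxorubicin RELB was above REL in all 3. NFKBIE reached 3.34 ± 0.113 CPM per kb. The order in DMSO was the same with the length of all annotated exons of each gene, and in doxorubicin NFKBIE (3.04) then came before NFKB1 (2.43).

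The doses were compared in a fit of 3 conditions, in which the lone 0.34 μM library takes its spread from the other libraries. edgeR called 0% of 14745 genes between 0.34 and 0.2 μM at an adjusted p of 0.01, with 27 genes at an unadjusted p under 0.05, and DESeq2 also called 0, with 33. For the 10 genes the unadjusted p from edgeR's fit over all genes was between 0.355 and 0.997. The largest difference was that of TNFAIP3, 0.43 on the log2 scale (SE 0.44). NFKBIE, with a difference of -0.0016 (SE 0.40), and REL, with 0.07 (SE 0.47), had nearly the same level at both doses. The standard errors of these differences were between 0.28 and 0.68, so that differences of this size were not detectable. Against DMSO, in the same fit, RELB had a log2 fold change of 1.18 at 0.2 μM and 1.48 at 0.34 μM, and TNFAIP3 of 0.80 and 1.23. These values share the DMSO libraries.

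Lists of the other genes of the pathway were compiled from general knowledge, but with earlier results of these data known. The 5 lists held 98 genes in all without the 10. Of these 76 passed the filter, of which edgeR called 4 higher, against 1.29% of all genes tested, and 1 lower, against 2.73%. DESeq2 called 12 higher and 1 lower at the same threshold, where it called 14.1% of all genes in either direction. Of the 14187 genes tested in edgeR, DESeq2 called 914 higher and 1110 lower. The 4 called by edgeR were all in the list of known NF-kB target genes, of which 25 of 38 were tested, with a median log2 fold change of 0.52. IL32, which encodes an inflammatory cytokine, had 12 and 9 counts in DMSO against 74, 86 and 127 in doxorubicin. It rose from 0.405 ± 0.0744 (SD, n = 2) to 3.31 ± 0.392 CPM (SD, n = 3), with a log2 fold change of 3.02 (SE 0.37). CSF2, which encodes the growth factor GM-CSF, rose from 0.811 ± 0.0395 to 5.98 ± 0.573 CPM, a log2 fold change of 2.87 (SE 0.29). BCL2L1, which encodes the survival protein BCL-XL, rose from 134 ± 3.79 to 306 ± 27.3 CPM, a log2 fold change of 1.19. NINJ1, which encodes ninjurin 1, a protein of the plasma membrane, rose from 40.7 ± 5.65 to 98.0 ± 14.6 CPM, a log2 fold change of 1.27. The adjusted p-values from edgeR were 0.00439, 0.00233, 0.00552 and 0.00895. All 4 calls were lost when any of the 5 libraries was left out, with adjusted p-values of up to 0.0265 for IL32, 0.0190 for CSF2, 0.0298 for BCL2L1 and 0.0423 for NINJ1. The direction held in each of these fits, which was largely set in advance, since the groups of these 4 genes did not overlap.

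The other target genes did not pass in edgeR, while DESeq2 called 4 more: IL6, C3, TNIP1 and SDC4, which encodes syndecan-4. With these, DESeq2 called 8 of the 25 tested target genes higher, against 914 of the 14187 genes tested in edgeR. IL6, the cytokine interleukin-6, had 121 and 47 counts in DMSO against 219, 193 and 336 in doxorubicin (log2 fold change 1.41, adjusted p = 0.0633 in edgeR and 0.00435 in DESeq2). Without DMSO replicate 1 its log2 fold change was 2.21, and without DMSO replicate 2 it was 0.88. PTX3, a soluble pattern recognition protein, had 405 and 1815 counts in DMSO against 277, 350 and 268 in doxorubicin. Its log2 fold change of -1.99 (edgeR adjusted p = 0.0708) was -0.53 without DMSO replicate 2. The complement gene C3, named after its values were seen, had 10 and 2 counts in DMSO against 64, 37 and 172 in doxorubicin (log2 fold change 3.64, adjusted p = 0.0289 in edgeR and 3.08e-05 in DESeq2). Leaving out DMSO replicate 1 gave 5.15 on the log2 scale, and leaving out replicate 2 gave 2.92. Among the chemokine genes of the list CCL2 was abundant, with 2332 and 395 counts in DMSO against 1152, 260 and 1246 in doxorubicin. Its groups overlapped, and its log2 fold change of -0.80 (edgeR adjusted p = 0.531) turned to 0.95 without DMSO replicate 1. The other 9 had few counts. Of CXCL1, CXCL2, CXCL3, CXCL5, CXCL6, CXCL8, CXCL10, CCL5 and CCL20, 8 had at most 3 counts in each library, and CXCL8 had 11 and 7 in DMSO and 7, 6 and 16 in doxorubicin. CXCL5, CXCL10 and TNF, the ligand of the classical pathway, had 0 counts in each library, which allows a level of up to between 0.0826 and 0.125 CPM (3 counts per library, counting error only).

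**Figure D4:**
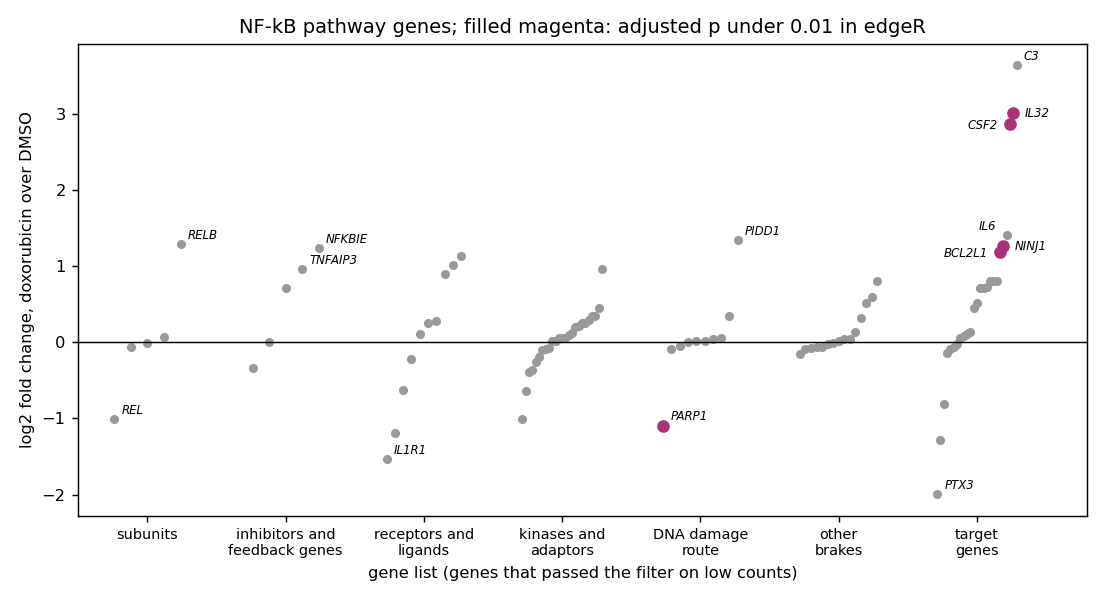
Log2 fold change (doxorubicin over DMSO, edgeR) of each gene that passed the filter on low counts, by list; some genes are in more than 1 list. Larger magenta points are the 5 genes with an adjusted p under 0.01, PARP1, IL32, CSF2, BCL2L1 and NINJ1, and none of these is a subunit, inhibitor or feedback gene.

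In the route from DNA breaks to IKK, PARP1 was called. It encodes a sensor of DNA breaks and fell from 157 ± 32.1 (SD, n = 2) to 73.8 ± 4.33 CPM (SD, n = 3), with a log2 fold change of -1.09 (SE 0.17, edgeR adjusted p = 0.00973). This call was close to the threshold and was lost without any 1 of the 5 libraries, with adjusted p-values between 0.0103 and 0.0616 from edgeR. PIDD1, which encodes a scaffold that is also a target of p53, had 152 and 238 counts in DMSO against 377, 566 and 707 in doxorubicin (log2 fold change 1.34, adjusted p = 0.0337 in edgeR and 0.000507 in DESeq2). IKBKG, which encodes NEMO, had a log2 fold change of 0.35 (SE 0.18), and ATM one of 0.00 (SE 0.16). The median over this list of 10 genes, all tested, was 0.02.

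edgeR called none of the 25 kinases and adaptors and DESeq2 called TRADD (adjusted p = 0.00472), and their median log2 fold change was 0.06. TRAF2, an adaptor of TNF receptors, had a log2 fold change of -1.01 (SE 0.29), TRADD, the adaptor that recruits it, one of 0.97 (SE 0.25), and IRAK1, a kinase below the IL-1 receptor, one of -0.64 (SE 0.21). Their adjusted p-values from edgeR were 0.0671, 0.0469 and 0.0912. Of 18 receptors and ligands, 10 were tested. edgeR called none of these, and DESeq2 called TLR3 (adjusted p = 0.00054) and IL1RAP, a co-receptor for IL-1 (adjusted p = 0.00483). IL1B, the cytokine IL-1β, had 160 and 233 counts in DMSO against 439, 255 and 823 in doxorubicin (log2 fold change 1.14, edgeR adjusted p = 0.0855). TLR3, a sensor of double-stranded RNA, had a log2 fold change of 1.02 (edgeR adjusted p = 0.0284). IL1R1, the IL-1 receptor, had 359 and 47 counts in DMSO against 109, 11 and 120 in doxorubicin, and its log2 fold change of -1.54 turned to 0.54 without DMSO replicate 1. Among 15 tested genes of other negative regulators edgeR called none, and DESeq2 called TNIP1 (adjusted p = 0.002). TNIP1, which encodes a binding partner of A20, had 92.6 ± 19.7 CPM (SD, n = 2) in DMSO and 162 ± 16.5 (SD, n = 3) in doxorubicin (log2 fold change 0.81, edgeR adjusted p = 0.0358). CYLD, a deubiquitinase, and ZC3H12A, an RNase that degrades cytokine mRNAs, had log2 fold changes of 0.60 (SE 0.27) and 0.52 (SE 0.30).

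Among those of the 10 genes whose mean log2 CPM reached 1, RELB had the largest absolute log2 fold change. The genes whose log2 CPM over the 5 libraries, centred on the mean of each gene, lay nearest to its own were ADAMTSL4, RNF150, GABARAPL1, NUDT14 and CCDC159. Their Euclidean distances from RELB were between 0.175 and 0.238, where the median over 11755 genes was 1.73. With log2 fold changes between 1.18 and 1.34, none of the 5 passed the threshold (adjusted p-values between 0.0684 and 0.0946 from edgeR). As they were chosen for their nearness over the same libraries, these values had to be like those of RELB.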

How the data were processed

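Per the labels and the study's methods, the authors aligned the reads of mRNA libraries with STAR to hg38, counted them per gene with featureCounts of Rsubread on the iGenomes annotation and deposited raw counts without normalization. No source used here gives tool versions, the strand setting or how multi-mapping reads were counted. A deposited table of the authors' own DESeq2 comparison (fold changes and p-values) was not used.

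edgeR 4.0.16 (R 4.3.3) was run on the counts of 26485 genes. Genes were filtered with filterByExpr (minimum count 10, minimum total 15), normalized with TMM and tested with the quasi-likelihood test, 3 doxorubicin against 2 DMSO libraries (the authors pooled the doses after a principal component analysis of these libraries), with Benjamini-Hochberg adjustment over all 14187 genes and the study's threshold of 0.01. Standard errors were derived from the log2 fold change and the F statistic (its size over the root of F), and 95% intervals use the total degrees of freedom of the fit. A prior count of 2 was used for log2 CPM. The DMSO pair and the 0.2 μM pair differed by a chi-square of 117 and 75.3 per degree of freedom, so no library was a copy. DESeq2 1.42.0, limma 3.58.1 (voom), DESeq2 size factors, no filter, a threshold of 0.05, each dose in a fit of 3 conditions, each library left out and a replicate block were the alternatives. The main edgeR fit was tested on simulated data.

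The 10 genes and the pathway and marker lists were chosen with earlier results of these data known. Named are the 10 genes, in each pathway list the called genes and the 3 largest absolute log2 fold changes whose mean log2 CPM reached 1, CDKN1A, and the 5 genes of nearest profile. C3, ATM, IL1RAP, SDC4, LIF, the chemokine genes, TNF and the markers are named outside this rule, after their values were seen. Gene positions and promoters are RefSeq's on GRCh38.p14. Transcript lengths are from GENCODE v44.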

Additional observations from a re-analysis of the deposited data

How the results depend on the processing

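The number of the 10 genes called was 0 in edgeR and 0 under each alternative except DESeq2 and a threshold of 0.05, with 1 each (NFKBIE). Of the 98 pathway genes, 5 were called in edgeR, 13 with DESeq2, 12 at 0.05, 0 at 0.2 μM and 0 at 0.34 μM in the fit of 3 conditions, and 0 in each fit without 1 library. Over all genes, 571 were called in edgeR, 2026 with DESeq2, 1020 without the filter, 185 and 98 at 0.2 and 0.34 μM in the fit of 3 conditions, and between 49 and 215 with a library left out. The fits of 3 conditions and those without a library leave fewer degrees of freedom than the main fit. Why they called fewer genes was not tested. Genes with log2 fold changes near 0 changed sign: at 0.34 μM in the fit of 3 conditions, NFKB1 was at 0.047, RELA at 0.038 and NFKBIA at -0.00051. With each library left out, NFKB1 lay between -0.16 and 0.13, NFKB2 between -0.062 and 0.20, RELA between -0.35 and 0.27, NFKBIA between -0.34 and 0.44, BCL3 between -0.84 and 0.40 and IL1R1 between -2.36 and 0.54, and the cause was not tested. REL, RELB, NFKBIE and TNFAIP3 kept their direction under every alternative run. As the groups of these genes did not overlap, this was largely set in advance. With the replicate number as a block in the 4 DMSO and 0.2 μM libraries, 0 of the 10 genes, 11 of the pathway genes and 1249 of all genes were called. The 11 were IL32, CSF2, BCL2L1, NINJ1, PIDD1, IL6, C3 and LIF, which were higher, and PARP1, PTX3 and IL1R1, which were lower. For IL1R1 the log2 fold change in this fit was -1.79 (adjusted p = 0.00202 from edgeR), with differences of -1.68 and -1.85 between libraries of the same number. The labels do not say that a number marks a shared batch. The differences between replicates 1 and 2 in DMSO and at 0.2 μM correlated across genes with r = 0.528 (genes are not independent replicates). In the replicate block the adjusted p-values from edgeR were 0.0134 for NFKBIE, 0.0300 for REL, 0.0350 for RELB, 0.137 for TNFAIP3 and 0.211 for BCL3. BIRC3 and RELB had at most 99 and 182 counts in a library, which limits their precision.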
